A study of Mus musculus with 6 samples.

Results

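Tail length and tag number were examined for 10 genes of the T cell antigen receptor and its nearest signalling partners in naive CD4 T cells of mice. The genes were taken by their Ensembl IDs and make up 10 of the 6469 gene IDs with at least 1 polyadenylated tag in the series. They are the receptor constant regions Trac, Trbc1 and Trbc2, the CD3 chains Cd3d, Cd3e, Cd3g and Cd247, the co-receptor Cd4, the kinase Lck and the adaptor Lat. All 10 are called the receptor genes below for short, although Cd4, Lck and Lat are not chains of the receptor. In mTAIL-seq an adaptor is ligated to the 3′ end of polyadenylated RNA, so that each transcript end is read together with its tail. A tag is a group of reads standing for 1 such end, and it was counted as tailed when its tail reached 5 nt.

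The study asks how the loss of BTG1 and BTG2 alters mRNA tails in resting T cells. The wild-type libraries (WT, n = 3) came from littermate controls of genotype Btg1 f/f Btg2 f/f, and the double-knockout libraries (DKO, n = 3) from mice with the same floxed alleles plus CD4-Cre. The Cre transgene is driven by Cd4 regulatory sequence and acts from the CD4-expressing thymocyte onwards, so that deletion is directed to the T cell lineage. Cells of both genotypes were sorted as TCRb+, CD4+, CD25-, CD62L high and CD44 low, a gate that itself selects for the proteins of several of the genes described here. The series text names triplicates, the growth protocol counts mice as 2 pairs, and the sources used here do not tie a library to a mouse. What a p-value below measures is thus the spread among libraries, which may be technical in part. The levels of Btg1 and Btg2 and the markers of other cell types were not analysed here.

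The αβ receptor recognises peptide bound to MHC molecules, but its chains have hardly any intracellular part and depend on the CD3 chains to signal. Lck, carried by the CD4 co-receptor, phosphorylates the CD3 tails, and the kinase recruited there in turn phosphorylates Lat, on which the downstream signalling complexes assemble. The poly(A) tail of an mRNA is shortened by deadenylases before most decay begins, and BTG1 and BTG2 are known to bind the CAF1 subunits of the CCR4-NOT deadenylase and to promote this shortening.

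The libraries held between 3943 (DKO replicate 3) and 24024 (DKO replicate 2) tailed tags linked to a gene ID. Both libraries numbered 3 stood apart: of their mapped tags, 32.3% (WT) and 35.3% (DKO) had no tail, against 7.95% to 9.94% in the other 4 libraries. They also had the shortest tails, with library means of 48.3 nt (WT) and 60.9 nt (DKO) against 70.3 to 78.9 nt elsewhere. Results that rest on them are given below without them as well.

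The 10 genes gave 1090 tags, 1076 of them tailed, and 0 of the 1090 were linked to a second gene ID. Bases added after the body of a tail are read along with it, and 19 of the tailed tags carried such bases at the 3′ end. The following 6 were chosen because their tails were under 35 nt and their stored strings held at most 36 bases and were not empty. This left out a Cd3g tag of WT replicate 3 with a 30 nt tail and 44 stored bases. It also left out a Cd4 tag of DKO replicate 2 with a 9 nt tail and no stored string. The tail as the deposited tables store it is in lower case, the added bases are in capitals, and T stands for U.
Trbc2, DKO replicate 2, 5 nt tail: aaaaaTATT
Cd3d, DKO replicate 1, 19 nt tail: aaaaaaaaaaaaaaaaaaaT
Trac, WT replicate 3, 22 nt tail: aaaaaaaaaaaaaaaaaaaaaaG
Trbc2, DKO replicate 2, 23 nt tail: aaaaaaaaaaaaaaaaaaaaaT
Lat, WT replicate 3, 31 nt tail: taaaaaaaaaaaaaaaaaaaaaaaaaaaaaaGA
Cd3g, WT replicate 3, 33 nt tail: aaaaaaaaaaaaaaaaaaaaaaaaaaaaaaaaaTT
The Trbc2 tag with the shortest tail carried a run of 4 added bases of which 3 were U, whereas the Trac tag carried a lone G. For the 23 nt Trbc2 tag the stored string holds 21 bases before the added base. Over all 19 tags the stored bases before the addition equalled the listed length in 8 and differed in 11, of which 3 have no stored string, and the listed length was used throughout.

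The constant regions supplied most of the material. Trac (ENSMUSG00000076928), the constant part of the α chain, lies at chr14:54220521-54224198 in mm10, the same assembly as GRCm38. Trbc1 (ENSMUSG00000076490) and Trbc2 (ENSMUSG00000076498) are near-identical copies of the β chain constant region, at chr6:41538219-41539665 and chr6:41546730-41548181. The deposited tables kept them apart, with 0 tags under both IDs, but the sources used here do not say how reads of the shared coding part were assigned. The CD3 chain genes Cd3g (ENSMUSG00000002033, chr9:44969572-44980431), Cd3d (ENSMUSG00000032094, chr9:44981769-44987052) and Cd3e (ENSMUSG00000032093, chr9:44998735-45009663) are neighbours, and Cd247 (ENSMUSG00000005763) lies at chr1:165779952-165871153. Cd4 (ENSMUSG00000023274) lies at chr6:124864693-124888247, Lck (ENSMUSG00000000409) at chr4:129548344-129573641 and Lat (ENSMUSG00000030742) at chr7:126363827-126369705.

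By tailed tags summed over the 6 libraries, Trac was the 30th most tagged of the 6469 IDs with 324 tags, Trbc1 the 39th with 262 and Trbc2 the 68th with 150. Lat followed with 75 tags, Cd3d with 72 and Lck with 65. Cd3g had 47 tags, Cd4 32, Cd3e 26 and Cd247 23. Since each transcript gives a tag from its 3′ end only, tag numbers need no length correction. In tags per 10000 tailed gene-linked tags, Trac exceeded Trbc1 in 4 of 6 libraries, by 3.53 ± 10.1 on average (SD, n = 6), which is within the spread. Trbc1 exceeded Trbc2 in 5 of 6 libraries, by 12.1 ± 9.40, and Trbc2 exceeded Cd3d in 5 of 6, by 8.72 ± 7.78. Below Cd3d each neighbour in the order differed by less than the spread, beginning with Cd3d and Lat (0.905 ± 5.68).

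Trac took 23.6, 33.4 and 13.9 tags per 10000 in the WT libraries and 48.4, 52.0 and 27.9 in the DKO libraries, in order of replicate. Its means were 23.6 ± 9.72 in WT and 42.8 ± 13.0 in DKO (SD, n = 3 each), 1.81-fold apart. The genotypes overlapped, because DKO replicate 3 lay below WT replicate 2. Trbc1 took 22.4, 29.0 and 22.3 in WT, against 43.5, 30.4 and 30.4 in DKO, with means of 24.6 ± 3.83 and 34.8 ± 7.58. Every DKO library lay above every WT library for Trbc1; the closest values were 30.4 and 29.0. The same held for 19 of the 170 IDs tested for tag number (11.2%), so 1 of 6 tested receptor genes is near the background. Trbc2 took 13.6, 17.6 and 23.7 in WT, against 16.9, 20.8 and 12.7 in DKO, with full overlap.

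**Figure D1:**
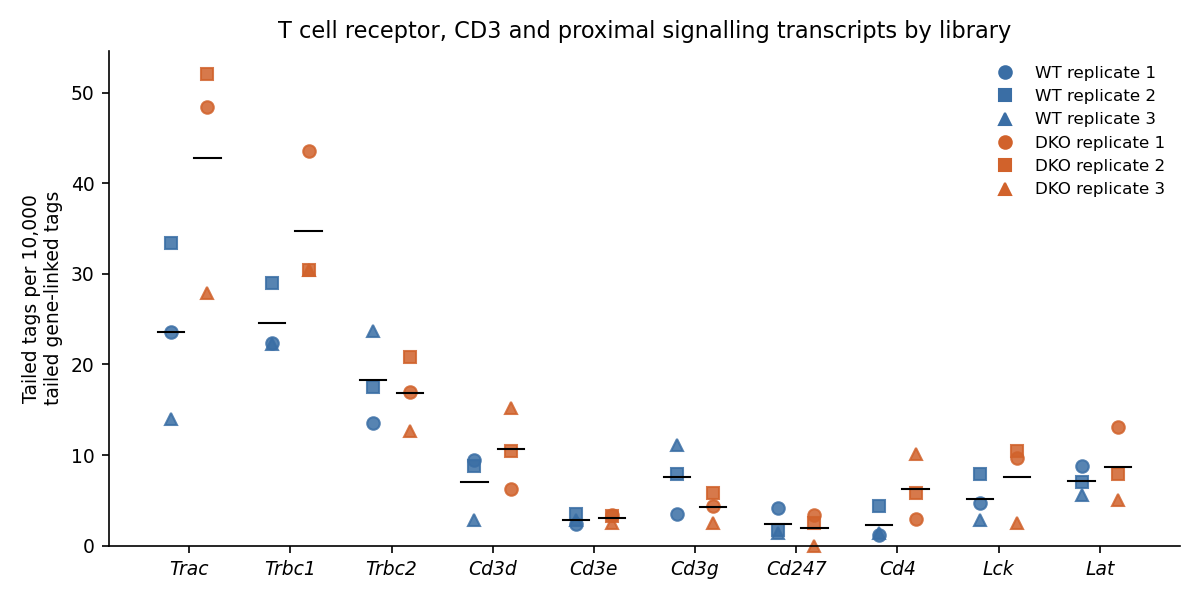
Tailed tags per 10000 tailed gene-linked tags (vertical axis) for each of the 10 genes (horizontal axis), with 1 point per library, blue for WT and orange for DKO, the symbol giving the replicate and the bar the mean of 3 libraries. The DKO points of Trbc1 all lie above its WT points, from 30.4 upwards against at most 29.0, while the points of the other 9 genes overlap.

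Of the CD3 chains, the δ chain gene Cd3d took 9.44, 8.78 and 2.79 tags per 10000 in WT and 6.29, 10.4 and 15.2 in DKO. The γ chain gene Cd3g took 3.54, 7.90 and 11.1 in WT, against 4.35, 5.83 and 2.54 in DKO, so that its extremes were both in libraries numbered 3. Cd3e, the shared ε chain, was even, at 2.36, 3.51 and 2.79 in WT, against 3.39, 3.33 and 2.54 in DKO. Cd247, which encodes the ζ chain, had 7, 2 and 1 tags in WT, against 7, 6 and 0 in DKO. The count of 0 in DKO replicate 3 allows up to 7.61 tags per 10000. All 4 CD3 chains overlapped between genotypes. Only Cd3d had enough tags for the test of tag number given below, where it was not called. What size of difference such low numbers could show was not tested.

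Cd4 took 1.18, 4.39 and 1.39 tags per 10000 in WT and 2.90, 5.83 and 10.1 in DKO. Its means of 2.32 ± 1.80 and 6.29 ± 3.64 (SD, n = 3 each) rest on 8 WT and 24 DKO tags, and the genotypes overlapped. Lck, the kinase that starts receptor signalling, took 4.72, 7.90 and 2.79 in WT, against 9.67, 10.4 and 2.54 in DKO, with the lowest value in a DKO library. Lat took 8.85, 7.03 and 5.57 in WT, against 13.1, 7.91 and 5.07 in DKO, again with overlap.

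In edgeR's quasi-likelihood test, fitted over the 170 IDs with enough tags, 6 of the 10 genes could be tested and 0 of them passed an adjusted p of 0.05, as did 0 of all 170 IDs (0%). At an unadjusted p under 0.05 there were 13 IDs by edgeR and 8 by DESeq2, which also called 0 after adjustment, and 0 of the 6 genes were among them by either tool. Trac had a log2 change of 0.82 in DKO (SE 0.44, edgeR adjusted p = 0.46), Lck of 0.65 (SE 0.52, edgeR adjusted p = 0.65) and Trbc1 of 0.46 (SE 0.42, edgeR adjusted p = 0.67). For Cd3d the log2 change was 0.29 (SE 0.54), for Lat 0.28 (SE 0.48) and for Trbc2 -0.10 (SE 0.45).

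The median over the 6 tested genes was a log2 change of 0.38, with 5 of 6 above 0, beside a median of -0.05 over all 170 IDs, of which 45.9% were above 0. With library totals in place of TMM scaling the medians were 0.67 and 0.24, with 6 of 6 and 68.8% above 0, so the direction of Trbc2 depends on the scaling. Without WT replicate 3 the median of the tested receptor genes was 0.18, with Trac at 0.48 and Lat at 0.07, beside -0.003 over all 241 IDs. With the libraries numbered 1 and 2 only it was also 0.18, over 7 genes, beside 0.059 over all 241 IDs. Trac then had an unadjusted edgeR p of 0.031 (adjusted p = 0.13), where 67 of 241 IDs were under 0.05. With library totals its unadjusted edgeR p was 0.027 (adjusted p = 0.29), where 22 of 170 IDs were under 0.05. A block for the replicate number called 3 of 170 IDs, and a fit of the libraries numbered 1 and 2 only called 30 of 241 by edgeR. Without WT replicate 3 alone, 8 of 241 IDs were called. In these 3 fits 0 of the tested receptor genes were called. In bulk cells, fewer cells that carry a transcript and less of it per cell cannot be told apart.

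Together the 10 genes took 0.938%, 1.21% and 0.878% of tailed gene-linked tags in WT and 1.52%, 1.49% and 1.09% in DKO. The means were 1.01 ± 0.178% and 1.37 ± 0.241% (SD, n = 3 each), with DKO replicate 3 below WT replicate 2. The DKO mean was higher by 0.359 percentage points, and by 0.432 points over the libraries numbered 1 and 2 only. The 10 most tagged IDs of the series took a larger share in WT (37.3% to 39.6%) than in DKO (27.3% to 30.5%). When these IDs were removed, the share of the receptor genes was 1.55%, 1.95% and 1.40% in WT, against 2.09%, 2.07% and 1.57% in DKO. The ratio of the DKO to the WT mean was 1.36 with these IDs and 1.17 without them (1.63 ± 0.284% in WT and 1.91 ± 0.296% in DKO, SD, n = 3 each).

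The tails of Trac were 83.9, 95.9 and 51.2 nt long on average in the WT libraries and 80.6, 94.6 and 66.8 nt in the DKO libraries. The libraries numbered 3 were lowest in both genotypes, and the means of 77.0 ± 23.1 nt and 80.7 ± 13.9 nt (SD, n = 3 each) overlapped. Trbc1 tails averaged 85.4, 83.9 and 62.4 nt in WT, against 85.3, 97.6 and 76.9 nt in DKO, or 77.2 ± 12.9 and 86.6 ± 10.4 nt. Trbc2 tails averaged 80.3, 82.4 and 45.7 nt in WT, against 75.8, 72.4 and 59.8 nt in DKO, or 69.4 ± 20.6 and 69.3 ± 8.42 nt. None of the 3 constant regions separated the genotypes.

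Tail length was tested with limma over the 44 IDs that reached 10 tailed tags in each library, which include Trac and Trbc1 but none of the other 8 genes. Neither was called, and 0 of 44 IDs passed an adjusted p of 0.05 (0%), with 2 IDs at an unadjusted p under 0.05. The log2 change in DKO was 0.17 for Trbc1 (SE 0.17, limma adjusted p = 0.86) and 0.10 for Trac (SE 0.25, limma adjusted p = 0.86). The median over all 44 IDs was 0.10, with 93.2% of them above 0, so Trac lay at the median of the IDs tested. When each library was centred on its own median, 25% of the 44 IDs were above 0, and the log2 changes were -0.05 for Trac and 0.02 for Trbc1. Without WT replicate 3 they were -0.17 for Trac and 0.03 for Trbc1, and without DKO replicate 2 they were -0.02 and 0.08.

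Measured against the mean over all tags of the same library, the tails of Trac and Trbc1 were long, by a test added after the data had been seen. Trac exceeded the mean over all tailed gene-linked tags in 6 of 6 libraries, by a ratio of 1.16 (log2 0.21, SE 0.07, limma adjusted p = 0.012). Trbc1 did so in 6 of 6 libraries by a ratio of 1.22 (log2 0.28, SE 0.06, limma adjusted p = 0.00054). Of the 44 IDs, 14 were above their library mean by this test (31.8%) and 8 below it, so long tails of this kind were common among the well-tagged IDs. The call of Trac was lost without WT replicate 2 (limma adjusted p = 0.12) and without DKO replicate 2 (limma adjusted p = 0.068). Same-numbered libraries deviate together, and with each such pair averaged to 1 value the call of Trac was lost (limma adjusted p = 0.068) and that of Trbc1 kept (limma adjusted p = 0.011). With the minimum lowered to 5 tags, Trbc2 could be tested and lay above the library mean in 3 of 6 libraries, at a log2 difference of 0.03 (SE 0.07, limma adjusted p = 0.77).

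**Figure D2:**
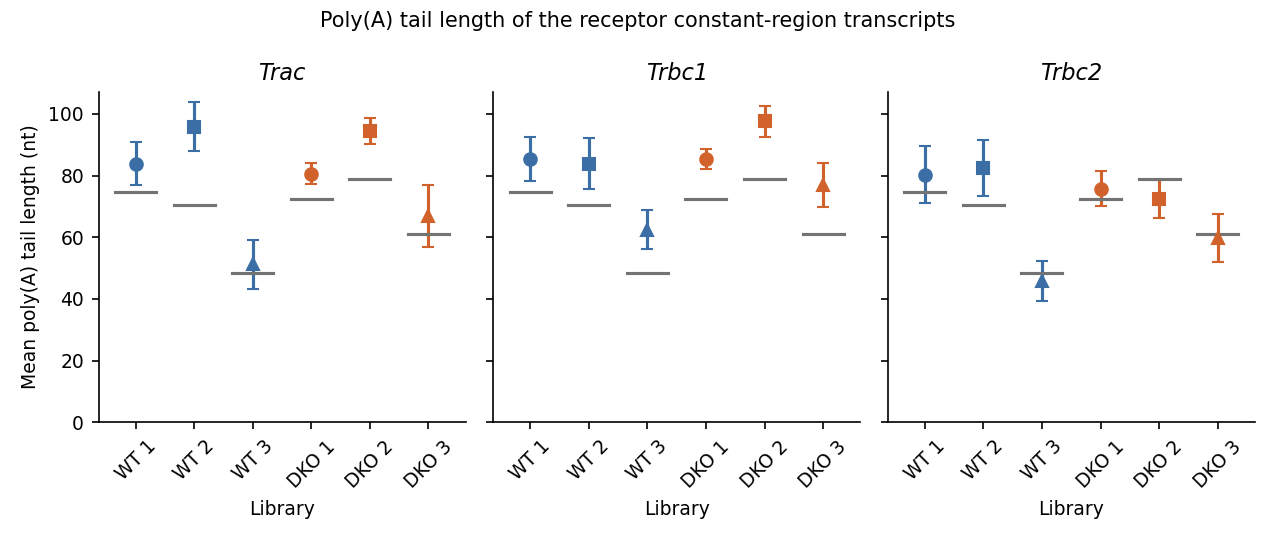
Mean poly(A) tail length in nt (vertical axis) of Trac, Trbc1 and Trbc2 tags in each library (horizontal axis), with bars of ± 1 SE over tags, and a grey line at the mean of all tailed gene-linked tags of that library. The points of Trac and Trbc1 lie above the grey line in 6 of 6 libraries, and those of Trbc2 in 3 of 6.

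In all 6 libraries the tails of Trbc1 were longer than those of its near-identical copy Trbc2. Trbc1 tails were longer than Trbc2 tails by 5.13, 1.53 and 16.7 nt in the WT libraries and by 9.50, 25.2 and 17.1 nt in the DKO libraries. The mean difference was 12.5 ± 8.75 nt (SD, n = 6 libraries), in the same direction in 6 of 6 (exact two-sided sign-flip test, p = 0.03125, adjusted p = 0.046875 over 3 pairs). Trac tails were longer than Trbc2 tails by 9.45 ± 7.13 nt, also in 6 of 6 libraries (exact sign-flip test, p = 0.03125, adjusted p = 0.046875). Trac and Trbc1 differed by -3.07 ± 8.34 nt, with Trac longer in 1 of 6 libraries (exact sign-flip test, p = 0.375). A p of 0.03125 is the smallest that 6 libraries allow, and with any library left out the smallest is 0.0625, so neither difference can pass the threshold then. The differences without 1 library ranged from 9.99 to 14.7 nt for Trbc1 against Trbc2 and from 6.91 to 10.6 nt for Trac against Trbc2. The test takes the 6 libraries as independent, although same-numbered ones deviate together. With the 3 numbers as units the smallest possible p is 0.25 and neither difference passes (exact sign-flip test, adjusted p = 0.375 each). These pairs were compared after the data had been seen.

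Median lengths gave the same order of the β chain copies. Trbc1 medians were 83.5, 70 and 69 nt in WT, against 78, 94 and 73 nt in DKO, while Trbc2 medians were 70, 69 and 40 nt in WT, against 67, 61.5 and 49 nt in DKO. By library, 8.70%, 10% and 29.4% of Trbc2 tails in WT were under 30 nt and 8.57%, 16% and 0% in DKO, the last from 5 tags. The share was higher than those of Trac and Trbc1 in 5 of 6 libraries. Summed over libraries it was 13.3% of 150 tags, beside 3.82% of the 262 of Trbc1 and 3.09% of the 324 of Trac. WT replicate 3, where short tails were most frequent, supplied 17 of the Trbc2 but 10 of the Trac tags.

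Pooled over the tags of all libraries, the mean tails of the CD3 chains were unlike, a description with no test. Cd3g tails averaged 58.3 nt and Cd3d tails 64.8 nt, below Trbc2 at 72.3 nt. Cd3e averaged 76.8 nt and Cd247 81.4 nt, above it. For Cd247 this rested on 13 DKO tags at 96.0 nt. Its 10 WT tags averaged 62.4 nt, below Trbc2 at 71.2 nt in WT, and the pooled medians of Cd247 and Trbc2 were 64.0 and 63.0 nt. The libraries contribute unequally to these pooled values. Taken over their tags in each library, the 4 CD3 chain genes averaged 62.9, 68.0 and 43.5 nt in WT, against 74.7, 71.7 and 55.5 nt in DKO, below the 3 constant regions in 6 of 6 libraries (83.6, 88.6 and 53.2 nt in WT, 81.7, 91.0 and 69.9 nt in DKO). This is a description of 168 CD3 and 736 constant region tags, with no test, and Cd3d and Cd3g supply most of the CD3 tags. In each same-numbered pair the CD3 chains were longer in DKO, by 11.8, 3.70 and 12.0 nt, while all gene-linked tags differed by -2.45, 8.62 and 12.6 nt. Relative to their own library the CD3 chains thus differed by 14.3, -4.92 and -0.650 nt, longer in DKO at number 1 only. By gene, Cd3g tails averaged 50.8, 61.9 and 39.0 nt in WT, against 72.1, 60.0 and 77.0 nt in DKO, the last of these from a lone tag. Cd3d tails averaged 69.6, 54.7 and 55.0 nt in WT, against 67.7, 69.9 and 44.2 nt in DKO.

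With the libraries numbered 3 left out, 122 IDs had enough tags and Cd3d could be tested against the library mean. It lay below that mean in 4 of 4 libraries, by a log2 difference of -0.18 (SE 0.06, limma adjusted p = 0.038). In this setting 28 of the 122 IDs (23.0%) were called below their library mean. Another 42 of the 122 (34.4%) were called above their library mean, and Trac was above the mean by 0.26 (limma adjusted p = 0.013) and Trbc1 by 0.25 (limma adjusted p = 0.0049). This fit takes the 4 libraries as independent, although same-numbered ones deviate together, and the test was added after the data had been seen. Of the libraries left out, WT replicate 3 had Cd3d tails of 55.0 nt (2 tags), above the library mean of 48.3 nt. DKO replicate 3 had Cd3d tails of 44.2 nt (6 tags), below the library mean of 60.9 nt. Cd3e and Cd247 had 26 and 23 tailed tags in all, and their library means ranged from 56.5 to 104 nt and from 31.0 to 104 nt.

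Cd4, Lck and Lat together averaged 96.5, 64.2 and 44.0 nt in WT, against 76.6, 83.5 and 50.4 nt in DKO over 172 tags. The order of the genotypes changed from number to number, with WT longer at number 1 and DKO longer at numbers 2 and 3. Lat, the adaptor, showed the same alternation, at 101, 55.5 and 38.0 nt in WT, against 80.5, 98.3 and 49.5 nt in DKO. Lck tails averaged 86.4, 79.1 and 59.5 nt in WT, against 67.5, 79.9 and 31.0 nt in DKO. Cd4 tails averaged 101, 51.4 and 37.0 nt in WT, against 88.8, 69.7 and 55.8 nt in DKO. Each of these genes overlapped between genotypes.

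Over all 10 genes the tail averaged 81.3, 80.9 and 50.2 nt in WT, against 80.1, 86.9 and 64.0 nt in DKO. The means were 70.8 ± 17.9 nt and 77.0 ± 11.7 nt (SD, n = 3 each), 6.18 nt apart, beside 6.26 nt for all gene-linked tags. The difference by number was -1.29, 5.96 and 13.9 nt, so most of it came from the libraries numbered 3. It ranged from -4.14 nt without WT replicate 3, where the direction turned, and 1.23 nt without DKO replicate 2 to 12.7 nt without DKO replicate 3. Over the libraries numbered 1 and 2 only, the difference was 2.34 nt. Relative to the mean of their own library, the 10 genes were longer by 6.64, 10.6 and 1.85 nt in WT and by 7.80, 7.99 and 3.11 nt in DKO. On that scale the genotypes were 0.079 nt apart, less than the spread between libraries.

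**Figure D3:**
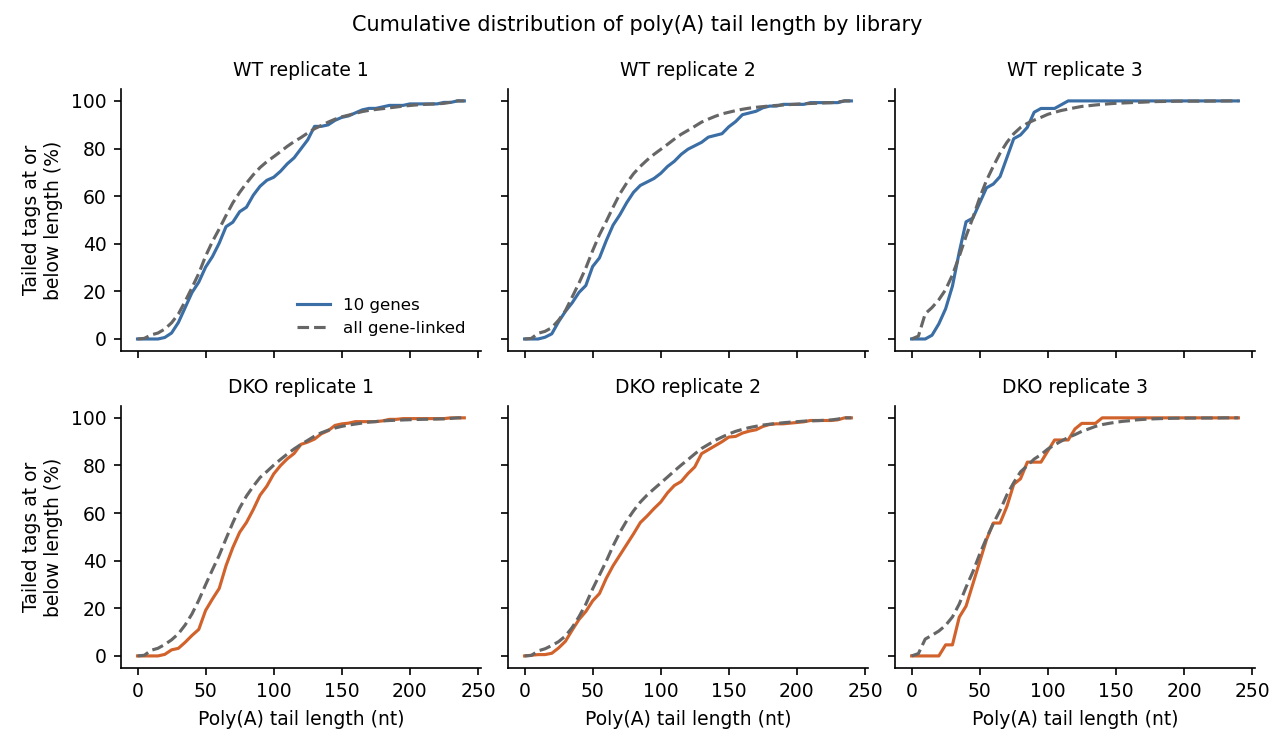
Cumulative percent of tailed tags (vertical axis) at or below each tail length in nt (horizontal axis), in 1 panel per library, for the 10 genes (solid line) and for all gene-linked tags (dashed grey line). The solid line runs below the dashed line over most lengths in the libraries numbered 1 and 2, where the means of the 10 genes are 6.64 to 10.6 nt above those of the library.

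The share of short tails was lower in each DKO library than in each WT library, a description with no test. Of the receptor gene tags, 6.92%, 10.9% and 20.6% had tails under 30 nt in WT (11 of 159, 15 of 138 and 13 of 63 tags), against 3.18%, 5.01% and 4.65% in DKO (10 of 314, 18 of 359 and 2 of 43 tags). The 95% exact (Clopper-Pearson) interval spanned 3.50% to 12.0% for WT replicate 1, whereas for DKO replicate 3 it spanned 0.568% to 15.8%, and covers counting error only. The DKO and WT means were 4.28 ± 0.969% and 12.8 ± 7.06% (SD, n = 3 each). The difference was -8.52 percentage points, and by number it was -3.73, -5.86 and -16.0 points. It was -4.61 points without WT replicate 3, -4.79 points over the libraries numbered 1 and 2 only, and -1.55 points when tails under 20 nt were counted.

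Across all gene-linked tags the share under 30 nt was 9.77%, 10.9% and 25.3% in WT, against 8.71%, 7.80% and 15.4% in DKO, also lower in every DKO library of a same-numbered pair. Relative to their own library the shares of the receptor genes were -2.85, -0.012 and -4.67 points in WT and -5.53, -2.78 and -10.8 points in DKO. On that scale the genotypes overlapped, with DKO replicate 2 above both WT replicates 1 and 3. Summed over libraries, 10.8% of receptor gene tags in WT and 4.19% in DKO were under 30 nt, beside 13.3% and 8.81% of all tags. Trac contributed 7 of 88 tags in WT (7.95%) and 3 of 236 in DKO (1.27%), and Trbc1 7 of 87 (8.05%) and 3 of 175 (1.71%). Trbc2 differed less, with 9 of 60 (15.0%) in WT and 11 of 90 (12.2%) in DKO, and the CD3 chains gave 8 of 71 and 9 of 97. Cd4, Lck and Lat together gave 8 of 54 (14.8%) in WT and 4 of 118 (3.39%) in DKO, but 1 of 25 (4.0%) and 2 of 53 (3.77%) in the number 1 pair.

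By library, the share of Trac tails under 30 nt was 7.5%, 5.26% and 20% in WT, against 1%, 1.6% and 0% in DKO, where 0 of 11 tags in DKO replicate 3 allows a share of up to 27.3%. All DKO libraries lay below all WT libraries for Trac, as they did for 13 of the 44 IDs with enough tags (29.5%). For Trbc1 the shares were 2.63%, 6.06% and 25% in WT, against 0%, 4.11% and 0% in DKO, with overlap; 0 of 90 tags allows up to 3.33% and 0 of 12 up to 25.0%. One of these 2 genes is thus near the background of 29.5%, and the larger part of the group difference came from the number 3 pair, where 13 of 63 WT tags and 2 of 43 DKO tags were short.

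**Figure D4:**
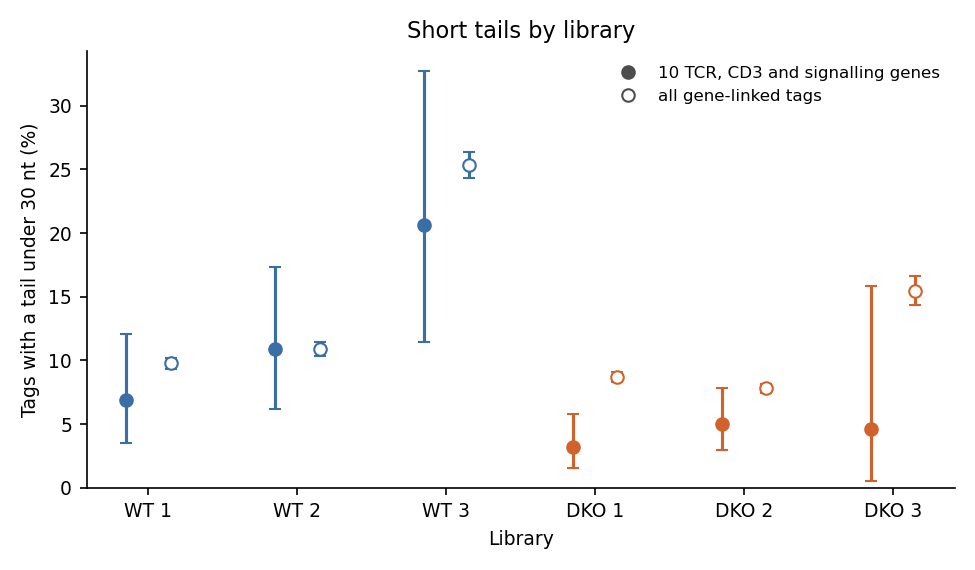
Percent of tailed tags with a tail under 30 nt (vertical axis) in each library (horizontal axis), for the 10 genes (filled circles) and for all gene-linked tags (open circles), with 95% exact intervals from counting. The filled circles lie between 6.92% and 20.6% in WT and between 3.18% and 5.01% in DKO.

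Tags with no tail were few among the receptor genes. Over all libraries 14 of 1090 of their tags (1.28%) had a tail under 5 nt, against 10.1% of the 93621 gene-linked tags. In WT replicate 3 the shares were 1.56% (1 of 64 tags) against 28.0%, and in DKO replicate 3 they were 2.27% (1 of 44) against 24.2%. In the other 4 libraries the receptor genes stood at 1.10% to 1.43% and all linked tags at 5.99% to 8.04%. The high no-tail share of the libraries numbered 3 was therefore not seen in these transcripts, within exact 95% intervals that reach up to 8.40% in WT replicate 3 and 12.0% in DKO replicate 3. Shares of other single gene IDs are not given here, so whether the low share is particular to these genes was not tested.

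A U among the added bases occurred on 0 of 159, 0 of 138 and 2 of 63 tailed receptor gene tags in WT and on 4 of 314, 6 of 359 and 0 of 43 in DKO. A count of 0 allows a share of up to 1.89% in WT replicate 1, 2.17% in WT replicate 2 and 6.98% in DKO replicate 3. These 12 tags do not separate the genotypes. Across all gene-linked tags the share was 2.85 ± 0.660% in WT and 2.48 ± 0.232% in DKO (SD, n = 3 each).

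The IDs whose tag numbers ran most like those of Trac over the 6 libraries were sought among the 170 tested IDs, by Pearson correlation of log2 tags per 10000. The closest were ENSMUSG00000004665 (r = 0.98) and ENSMUSG00000019210 (r = 0.95), neither of them among the 10 genes. The first had 55, 54 and 19 tags in WT, against 113, 151 and 15 in DKO. The 6 points share their libraries and depths, and the best of many correlations is high by selection, so these values describe the pattern only.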

How the data were processed

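Poly(A) tails were measured by mTAIL-seq in 6 libraries, 3 per genotype, named by genotype and replicate number from the labels. The authors deposited, per library, tables of tags with read counts and tail lengths in nt (0 or below where no tail was found, 231 at most), links from tags to Ensembl gene IDs, and tag counts and mean tails per ID, per the file headers. The submitters' processing notes name GSNAP, bedtools, mm10 and GRCm38. The sources used here do not state how tails were called or which annotation release was used. Tables of all tags before mapping were not used.

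Tags were joined to gene IDs by tag and the tail length after mapping was used, with a minimum of 5 nt. For the 10 genes, 60 of 60 tag counts and 59 of 59 mean tail lengths equalled those deposited (geometric means, within 1e-06 nt). Arithmetic means are given here. log2 mean tail per ID was fitted with limma (3.58.1) over IDs that reached 10 tailed tags in each library, and tag counts with edgeR's quasi-likelihood test (4.0.16, TMM, its filter on low counts), with DESeq2 (1.42.0) as an alternative, in R 4.3.3. The SE given with edgeR is the absolute log2 change divided by the square root of the F statistic, not a value that edgeR reports. P-values were adjusted by Benjamini-Hochberg over all IDs fitted, at 0.05. Exact sign-flip tests and Clopper-Pearson intervals used SciPy 1.17.1. Intervals and the limit for a count of 0 (3 counts) cover counting error only, since PCR reads need not be independent molecules. The limma and edgeR fits were first run on simulated data with a fixed spread, not one estimated from these libraries. What differences they could detect in these libraries was not tested.

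Same-numbered WT and DKO libraries deviated together from their group means. The correlations over IDs were 0.25, 0.40 and 0.52 for tail length and 0.12, 0.18 and 0.33 for tag number. Correlations between libraries of different number were not computed. Deviations within a genotype are tied through its mean, so a trait shared by the libraries numbered 3 alone would raise the values at numbers 1 and 2 too. Whether same-numbered libraries are true pairs was thus not tested. The numbers, taken from the labels, were treated as pairs in an alternative fit with a replicate block. Other alternatives were each library left out, numbers 1 and 2 only, same-numbered libraries averaged, other minimums, geometric means, centring, other scaling and no filter.

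All 10 genes are named whatever their values. The genes and lists were chosen with earlier results of these data known. Positions are from RefSeq (GRCm38.p6), matched by symbol for 10 of 10 genes. Of its 49997 rows, 0 carry an Ensembl ID, so other genes of the pathway and markers of other cell types were not analysed here. Tail sequences are from the deposited tables.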

Additional observations from a re-analysis of the deposited data

How the results depend on the processing

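Of the alternatives computed beside 19 results, 176 kept their side of the threshold or, for values with no test, moved by under 1 SD between replicates. Of these, 4 turned in sign: the difference in mean tail of the 10 genes was -4.14 nt without WT replicate 3 (range without 1 library to 12.7 nt) and -0.079 nt against the library mean, and that in added U was 0.982 points without WT replicate 3 and 0.414 without DKO replicate 3. The others that changed are given here, and the cause was not tested unless stated. The number of IDs called for tag number by edgeR was 0 to 8 when 1 library was left out (8 of 241 without WT replicate 3), 3 with the replicate block and 30 with numbers 1 and 2 only; the tested receptor genes called were 0 each time. The replicate block changed no other call, and gave Trbc1 and Trac tail changes with limma adjusted p of 0.65 and 0.70. The log2 tail change of Trac ranged from -0.17 to 0.29 without 1 library (-0.17 without WT replicate 3, -0.02 without DKO replicate 2), and was -0.038 with numbers 1 and 2 only and -0.054 after centring. For tag number, Cd3d turned to -0.16 without WT replicate 3, -0.01 without DKO replicate 3 and -0.29 with numbers 1 and 2 only. Trbc2 turned to 0.032 without WT replicate 3, 0.13 with numbers 1 and 2 only, 0.20 with library totals and 0.040 with no filter; its range without 1 library was -0.26 to 0.032. The length differences with numbers 1 and 2 only were 10.3 nt for Trbc1 against Trbc2 and 11.0 nt for Trac against Trbc2, where 4 libraries cannot pass the threshold, and 0.714 nt for Trac against Trbc1. Without 1 library they ranged from 9.99 to 14.7, from 6.91 to 10.6 and from -6.09 to -1.45 nt. With same-numbered libraries averaged they were 12.5 and 9.45 nt, where 3 units cannot pass the threshold. The difference in short tails was -1.55 percentage points at under 20 nt in place of 30, and that in added U was 1.47 points with numbers 1 and 2 only. A minimum of 30 tags per library left 12 IDs and none of the 10 genes in the tail length fit. Depth limits Cd247, Cd3e, Cd4 and Cd3g most, with 23 to 47 tags each over all libraries, and DKO replicate 3, with 43 tailed tags of the 10 genes.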

Other observations

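The longest and the middle tails of the 10 genes were spread unevenly over libraries, as were those of all gene-linked tags. Tails of 150 nt or more made up 7.55% and 11.6% of their tailed tags in WT replicates 1 and 2 and 2.55% and 9.19% in DKO replicates 1 and 2, and 0 of 63 and 0 of 43 tags in the libraries numbered 3, which allows up to 4.76% (WT) and 6.98% (DKO). Tails of 60 to 89 nt made up 24.5%, 24.6% and 30.2% in WT and 39.5%, 26.7% and 25.6% in DKO, highest in DKO replicate 1. Of all gene-linked tags, 26.3%, 26.4% and 20.2% in WT and 33.4%, 28.4% and 27.7% in DKO had tails of 60 to 89 nt. That share was also highest in DKO replicate 1. Tails of 150 nt or more made up 6.92%, 4.89% and 1.05% of all gene-linked tags in WT, against 3.76%, 7.01% and 1.95% in DKO. Among the 1076 tailed tags, 5 were listed at 231 nt, the longest length in the tables, so their true length may be greater.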
